A study of Arabidopsis thaliana with 4 samples.

Results

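The plant AGC VIII kinases examined here were 10 Arabidopsis loci of the KIPK, PAX, D6PK and related types, gathered around AT2G36350. That gene was the starting point because its transcript had been found higher after treatment in these same arrays. Its difference between treatments, and those of the other loci, are therefore given as descriptions, and no test of them is used as support. A locus counted as measured where the platform's gene table assigned a probe set to it alone, and 4 of the 10 did: AT2G36350, AT2G44830, AT5G40030 and AT3G44610. Each had 1 such probe set, so the rule of taking the brightest had nothing to choose between. The table gave a single gene to 13513 of the 22746 probe sets tested over the whole series, which stood for 13355 genes. The other 6 loci were KIPK, D6PK, D6PKL1, D6PKL2, AGC1.5 (AT3G12690) and AGC1.7 (AT1G79250). No probe set carried their names in that table, and their transcripts are not analysed here.

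The GR24 group was 2 arrays of RNA from whole 14-day-old max3 seedlings (strain Col) given 1 µM GR24, a synthetic strigolactone, for 90 min. The mock group was 2 arrays from max3 seedlings of the same age and strain given only dimethyl sulfoxide (DMSO), the solvent, for as long. Both groups carry max3, a mutation that blocks strigolactone synthesis, so neither has a normal supply of the hormone. Both are numbered replicate 1 and 2, and the study describes 2 independent analyses with separately grown seedlings, called preparations here. Values are log2 signals after RMA, which corrects background, equalises the arrays and merges the probes of a set. Such a value can be followed between arrays for 1 probe set but not set against that of another probe set. Array medians lay between 7.03 and 7.06, and the small number of arrays limits the precision of every value. Of the marker genes, the leaf gene RCA (Rubisco activase) read 13.5 and 13.6 on the GR24 arrays and 13.4 and 13.6 on the mock arrays. The root beta-glucosidase gene PYK10 read 13.1 and 13.2 with GR24 and 13.2 and 13.3 with mock. The pollen pectate lyase gene AT5G15110 read 3.95 and 3.79 with GR24 and 3.80 and 3.77 with mock.

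AGC kinases are serine/threonine kinases named after the protein kinases A, G and C of animals. Family VIII is specific to plants. Its best-known members, PINOID, the WAG kinases and the D6 protein kinases, phosphorylate PIN proteins, the carriers that export auxin from cells, and so set where and how strongly auxin flows. Phototropins, the blue-light receptors that steer bending, belong to the same family. Strigolactones are known to dampen auxin transport in shoots. GR24 treatment of a mutant without its own strigolactone asks which transcripts respond to the hormone within the treatment time.

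AT2G36350 is a KIPK-type kinase. KIPK was named for its binding to KCBP, a kinesin that calmodulin regulates, and the KIPK group has been linked to root growth. The AT2G36350 probe set, 263962_at, read 7.39 in replicate 1 and 7.58 in replicate 2 with GR24, against 6.73 in replicate 1 and 6.94 in replicate 2 with mock. Both GR24 arrays lay above both mock arrays. GR24 minus mock was 0.66 in replicate 1 and 0.64 in replicate 2, a mean log2 difference of 0.65 ± 0.015 (SD, n = 2 pairs) or 1.57-fold. The moderated SE, which pools the spread of all probe sets, was 0.10. The difference stood at place 50 from the top among the 22746 probe sets. The 2 pairs differed from each other by 0.021, less than in 92.4% of probe sets, where the median gap between pairs was 0.154. The gene was chosen for its rise in these same arrays. That favours a large difference and can favour a small gap between pairs, so neither value shows that the difference is reproducible. The mock arrays themselves differed by 0.21. In whole-seedling RNA, more of the cells that contain a transcript and more transcript per cell cannot be told apart.

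**Figure D1:**
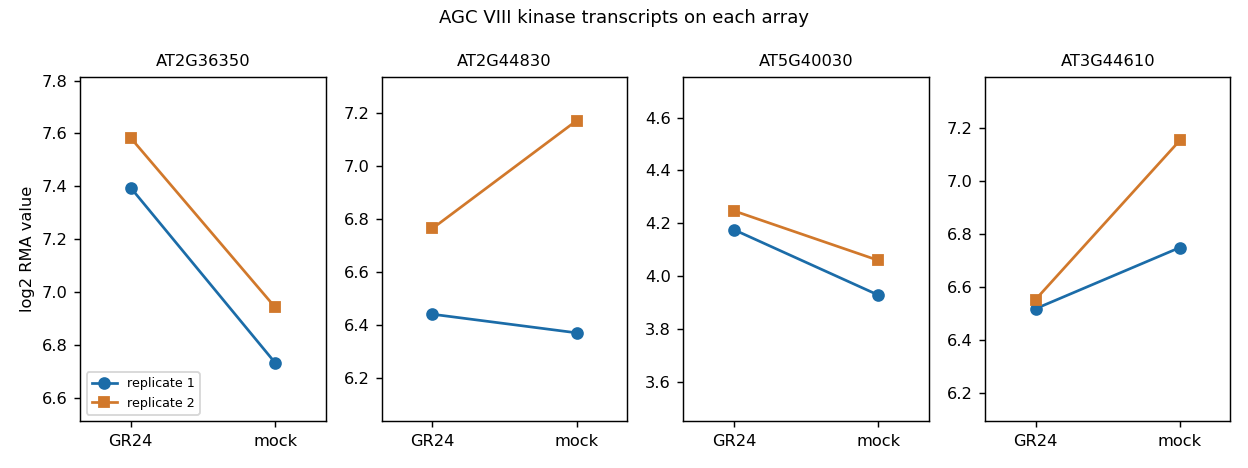
Log2 RMA values of the 4 measured AGC VIII kinases, with GR24 left and mock right and a line joining the arrays that share a replicate number; each panel has its own vertical axis of equal span. AT2G36350 is higher with GR24 in both replicates, while the lines of AT2G44830 slope in opposite directions.

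AT2G44830 encodes PAX, a kinase that works with BREVIS RADIX at the plasma membrane of developing root phloem, where the pair adjusts auxin export through PIN proteins. AT2G44830 (probe set 266812_at) read 6.44 in replicate 1 and 6.76 in replicate 2 with GR24, and 6.37 in replicate 1 and 7.17 in replicate 2 with mock. The GR24 values fell inside the range of the mock values, so the groups overlapped. Within pairs the difference was 0.07 in replicate 1 and -0.41 in replicate 2, with a mean of -0.17 ± 0.34 (SD, n = 2 pairs). The direction therefore differed between the preparations. The gap of 0.479 between its pairs exceeded that of 94.7% of probe sets. In an unpaired comparison that left out 1 array, the mean difference was -0.57 when mock replicate 1 was dropped and 0.23 when mock replicate 2 was dropped.

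AT5G40030 is the close relative of PAX. Its probe set, 249440_at, was dim on these arrays, with GR24 values of 4.18 and 4.25 and mock values of 3.93 and 4.06 in replicates 1 and 2. Its mean over the arrays, 4.10, lay below 4.72, the lower quartile of all probe sets. GR24 minus mock was 0.25 in replicate 1 and 0.19 in replicate 2, a mean of 0.22 ± 0.042 (SD, n = 2 pairs) or 1.16-fold. The GR24 arrays were above the mock arrays without overlap. With 16 added to the linear signals before taking log2, which damps dim probe sets, the difference was 0.11.

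AT3G44610, another kinase of the group, has been described as acting in hypocotyl bending. Its probe set, 252646_at, read 6.52 and 6.55 with GR24, against 6.75 and 7.15 with mock, in replicates 1 and 2. The GR24 arrays were nearly equal and both lay below the mock arrays. GR24 minus mock was -0.23 in replicate 1 and -0.60 in replicate 2, with a mean of -0.42 ± 0.26 (SD, n = 2 pairs) or 0.749-fold. Most of the spread came from the mock arrays, which differed from each other by 0.41, against 0.035 between the GR24 arrays. Without mock replicate 2, in an unpaired comparison, the difference was -0.21, and without mock replicate 1 it was -0.62.

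The 4 kinases thus showed no common direction. Of the 4, 2 had a mean difference above 0 and 2 below 0, and their median was 0.02, beside 0.01 over all probe sets. AT2G36350 was chosen for its rise, so its sign and size add nothing to this split or median. Apart from it, AT5G40030 was above 0 at 0.22, and AT2G44830 and AT3G44610 were below at -0.17 and -0.42. AT2G36350 was 1 of the 33 probe sets (0.145%) called higher at an adjusted p under 0.05 in a paired limma model. That model called 36 (0.158%) lower and 0.303% in either direction, or 1.24% with limma's default prior. The choice of AT2G36350 for its rise favoured its call, so nothing is read from the count of 1 called kinase in 4. Its call was lost without the replicate block, after median centring or repeated quantile normalization, with the offset of 16 and without the dimmest 25% of probe sets. The groups did not overlap for 3 of the 4 kinases, and the same held for 23.1% of all probe sets. AT2G36350 was among the 3, as its choice would favour. A difference of at least 0.5 in both pairs was reached by AT2G36350, whose choice favours it, and by no other measured member. Over all probe sets the shares were 0.233% for rises and 0.251% for decreases of that size. For AT2G36350 nothing is read from this comparison.

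Other AGC VIII kinases outside the 10 loci gave a further view, and 4 of 13 listed genes were measured. WAG2, which with WAG1 limits root waving and acts on PIN proteins, had the largest difference in that list. WAG2 read 5.28 and 5.41 with GR24, against 5.51 and 5.87 with mock, in replicates 1 and 2. Its mean difference was -0.34 ± 0.11 (moderated SE over 2 pairs, limma adjusted p = 0.410), which did not pass. AT5G03640, the other KIPK-type kinase with a named probe set, was singled out after its values were seen because of its kinship with AT2G36350. It read 3.98 and 3.76 with GR24, against 3.92 and 4.05 with mock. Its difference was -0.12, with a 95% interval from -0.38 to 0.15 (moderated, over 2 pairs, limma adjusted p = 0.904). This KIPK-type probe set also lay below the lower quartile of all probe sets, and whether its response differs from that of AT2G36350 was not tested.

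All 4 of these other AGC VIII kinases had mean differences below 0, between -0.34 and -0.11. Their median was -0.18, beside 0.01 over all probe sets, where the share below 0 was not counted. Only 2 of the 4 had the same sign in both pairs. PID2 was at 0.03 and AT5G03640 at 0.05 in replicate 1, against -0.24 and -0.29 in replicate 2. All 4 were highest on mock replicate 2, as were 26% of all probe sets, so the 4 in 4 is not read as a response. In the paired limma model 0 of them passed the adjusted threshold, beside 0.303% of all probe sets. At that share few calls would be seen in 4 genes, so the 0 says little about a response. WAG2 was the 1 gene of the 4 with an unadjusted p under 0.05, a level that 7.47% of all probe sets reached. With limma's default prior the count of adjusted calls was also 0, beside 1.24% of all probe sets. Without the replicate block it was 0 as well, but there 0 of all 22746 probe sets were called.

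AGC kinases outside family VIII include PDK1, which activates other AGC kinases, the ribosomal S6 kinases and the NDR kinases of cell shape and division. Of 16 such genes, 10 were measured. PDK1 (AT5G04510) and the S6 kinase genes (AT3G08730 and AT3G08720) had no named probe set and were not among them. The differences of the 10 ran from -0.17 to 0.17 with a median of -0.04. The largest was that of the NDR-type gene AT4G33080, which read 7.70 and 7.93 with GR24 and 7.50 and 7.78 with mock in replicates 1 and 2, a difference of 0.17 ± 0.10 (moderated SE over 2 pairs, limma adjusted p = 0.793). None of the 10 passed, beside 0.303% of all probe sets, and 0 had an unadjusted p under 0.05 in that model, beside 7.47%. AT2G36350, at 0.65, lay outside the range of all 14 of these relatives, as its choice would favour.

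**Figure D2:**
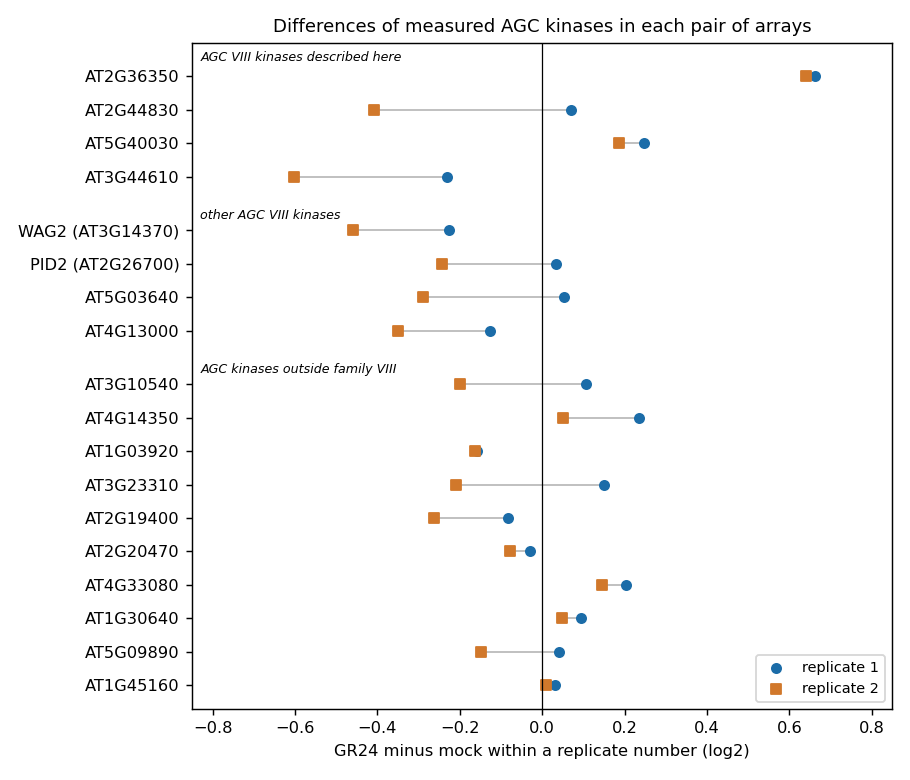
GR24 minus mock on the log2 scale within replicate 1 (circles) and replicate 2 (squares) for the 18 measured AGC kinases, grouped from top to bottom as the AGC VIII kinases described here, other AGC VIII kinases and AGC kinases outside family VIII. AT2G36350 is at 0.66 and 0.64, and in each of the 18 genes the replicate 2 square lies left of the replicate 1 circle.

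Proteins that work with AGC VIII kinases could hardly be followed. Of the 9 gene lists drawn up around the family, 6 had no measured gene. These were the PIN exporters, the AUX1/LAX and ABCB carriers, the KIPK partners KCBP and PERK kinases, the NPH3/NPY proteins, the PINOID-binding calcium proteins, and the PIP5 kinases with a PP2A subunit. The platform's gene table did not list 8730 of the 22746 probe sets, so an unmeasured gene is not shown to be absent from the array. The BREVIS RADIX family had 1 measured gene of 5, ATBRXL2. It read 5.94 and 5.72 with GR24 and 5.76 and 5.81 with mock, a difference of 0.05 ± 0.11 (moderated SE over 2 pairs, limma adjusted p = 0.971). Over all 9 lists 15 of 64 genes were measured and 0 passed in that model, beside 0.303% of all probe sets. The count at an unadjusted p under 0.05 was 1, beside 7.47% of all probe sets.

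The difference between preparations was not used in choosing the loci and could be tested. Its SE rests on the same gap between pairs as that of the treatment difference. The choice of AT2G36350 can favour a small gap, so its interval and adjusted p in this contrast are descriptions only. All 4 kinases were higher in replicate 2 than in replicate 1 on both the GR24 and the mock arrays, but only AT2G44830 passed. The share of all probe sets higher in replicate 2 on both treatments was not counted. Arrays that share a number deviated together (r = 0.712 over all probe sets), so the 4 in 4 is not read as a trait of these kinases. AT2G44830 was higher in replicate 2 by a log2 difference of 0.56 ± 0.13 (moderated SE, n = 2 pairs, adjusted p = 0.0216 in limma with treatment as a block). Its 95% interval ran from 0.27 to 0.86. The difference was 0.32 on the GR24 arrays and 0.80 on the mock arrays. In this contrast 8.14% of all probe sets were called higher in replicate 2, 8.59% lower and 16.7% were called in either direction, so a call of 1 in 4 is not far from the background.

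For the other 3 kinases the preparation difference did not pass. It was 0.20 for AT2G36350 (95% interval -0.03 to 0.43, adjusted p = 0.216 in limma with treatment as a block, n = 2 pairs), 0.22 for AT3G44610 (interval -0.05 to 0.49, adjusted p = 0.246) and 0.10 for AT5G40030 (interval -0.13 to 0.33, adjusted p = 0.553). All these intervals overlapped that of AT2G44830 (0.27 to 0.86), and a difference from AT2G44830 itself was not tested. For AT2G44830 the preparation difference of 0.56 was larger in size than its treatment difference of -0.17. For AT2G36350 the treatment difference of 0.65 was the larger, but the choice of the gene favours this, so nothing is read from it.

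A root marker also differed between preparations. Of 7 listed root markers 4 were measured, and their mean log2 level was 9.86 on the GR24 array of replicate 2, against 10.1 on that of replicate 1. It fell by 0.13 between the same replicates on the mock arrays. The root peroxidase gene AT5G17820 was lower in replicate 2, with a log2 difference of -0.54 ± 0.10 (moderated SE, n = 2 pairs, adjusted p = 0.0109 in limma with treatment as a block) and the other 3 did not pass. This 1 call in 4 stands beside 8.59% of all probe sets called lower in replicate 2 and 16.7% called in either direction. Of the root markers that did not pass, AT3G01190 differed by -0.35 and AT4G30170 by -0.05, also lower in replicate 2, and PYK10 by 0.11 the other way. The part of root content in the preparation difference of AT2G44830 was not tested. Differences in the seedlings and in array handling that shared the replicate number cannot be told apart here.

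**Figure D3:**
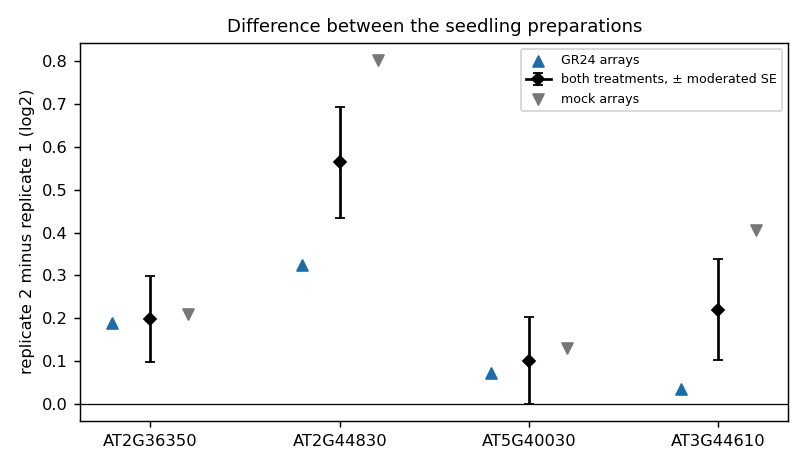
Replicate 2 minus replicate 1 on the log2 scale for the 4 measured AGC VIII kinases, on the GR24 arrays (upward triangles), over both treatments with the moderated SE (diamonds), and on the mock arrays (downward triangles). AT2G44830 has the highest diamond at 0.56, and for each gene the mock triangle lies above the GR24 triangle.

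Genes with the pattern most like that of AT2G36350 were sought among the 13512 other probe sets with a single gene, by the Euclidean distance of their values over the 4 arrays after subtracting each probe set's mean. The nearest was AT2G28410 at a distance of 0.0902, with 7.13 and 7.43 on the GR24 arrays and 6.57 and 6.76 on the mock arrays. AT1G16500 followed at 0.127, AT4G22730 at 0.152, the serine carboxypeptidase-like gene SCPL45 at 0.154 and AT2G47010 at 0.157. The median distance over the probe sets with a single gene was 0.719. None of the 5 nearest genes passed for GR24 against mock in the paired limma model (adjusted p between 0.0560 and 0.117). Their likeness is to a pattern that was picked for its rise with GR24. Among the measured members, AT5G40030 lay at 0.445, AT2G44830 at 0.926 and AT3G44610 at 1.08, so the last 2 were farther from AT2G36350 than the median probe set. These distances take in the same GR24 minus mock differences given above, so they are no separate result.

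**Figure D4:**
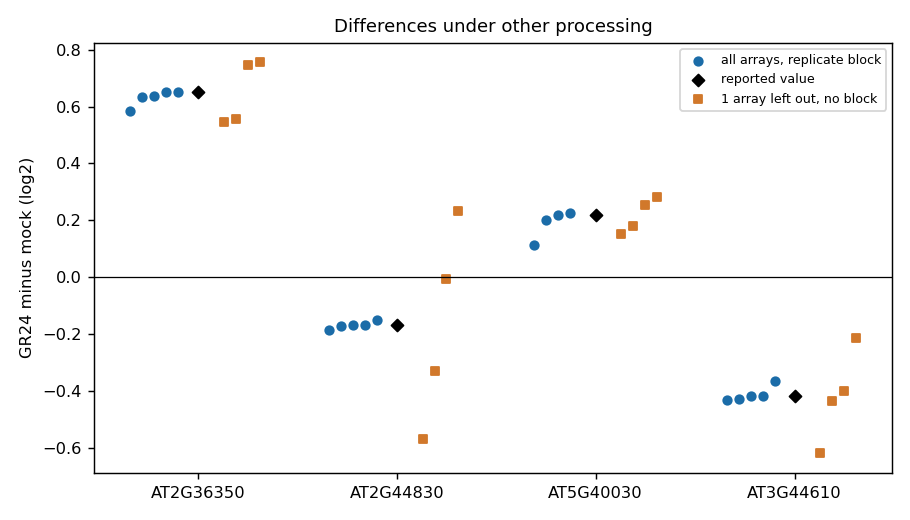
GR24 minus mock on the log2 scale for each of the 4 kinases, with all arrays and the replicate block under other processing (circles), as reported (diamonds), and with 1 array left out and no block (squares). The value of AT2G36350 stays between 0.55 and 0.76, and AT2G44830 is the gene whose squares lie on both sides of 0.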

How the data were processed

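Biotin-labelled cRNA of 4 samples was hybridised to 1-colour oligonucleotide arrays. The deposited log2 values were made by the authors with RMA, per the submitters' processing notes, with version and settings not given in the sources used here. The table held 22810 probe sets, of which 64 controls were left out and 22746 tested whether dim or bright. Genes were named from the platform's table through gene identifiers. It listed 503 probe sets with several genes and did not list 8730. Tests used limma 3.58.1 in R 4.3.3, two-sided, with the replicate number as a block (1 residual degree of freedom) and Benjamini-Hochberg adjustment over all probe sets at 0.05. A maximum-likelihood prior variance (7.62 prior degrees of freedom, prior SD 0.107) dominates each moderated SE, so SDs of the pairs are given for the members. The script was tested on simulated data. The pairing rests on the study's description of separate seedling preparations, and arrays that share a number deviated together from their group means (r = 0.712 over all probe sets). No source says whether the arrays of a preparation came from separate cultures, so p-values reflect the spread among these arrays, which may be technical. The loci, lists and settings were chosen with earlier results of these data known. The rule for named genes took all measured members, in each list the gene with the largest difference and any that passed, and the 5 nearest patterns. Alternatives were no block, limma's default prior, repeated quantile normalization, median centring, dim probe sets left out, an offset of 16, a threshold of 0.1 and each array left out. No sequences were used.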

Additional observations from a re-analysis of the deposited data

How the results depend on the processing

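AT2G36350 was chosen for its rise in these same values, so its status under other settings is a description and no test. The number of the 4 kinases called for GR24 against mock was 1 as reported. It was 0 with no replicate block, without the dimmest 25% of probe sets, after median centring, with an offset of 16, and after repeated quantile normalization. It was again 1 with the replicate block and limma's default prior. Over all probe sets the 69 calls became 0 with no replicate block (341 at an unadjusted p under 0.05). With the block they became 281 with limma's default prior (1.24% of probe sets), 24 with an offset of 16, and 110 at an adjusted p under 0.1. The causes were not tested. Fits with 1 array left out also dropped the block, so their counts say nothing about any single array and are not given. With all arrays and the block, each kinase kept its direction. With 1 array left out, on the assumption that a group of 1 array is as variable as the other, AT2G44830 changed sign once, and its difference lay between -0.57 and 0.23. The preparation call of AT2G44830 held under all 5 alternatives tried (adjusted p between 0.00251 and 0.0365 in limma). Averaging probe sets per gene was not run, since each kinase had 1. How far AT5G40030 stood above background was not measured here.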

Other observations

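In all 18 measured AGC kinases, the 4 members among them, GR24 minus mock was lower in replicate 2 than in replicate 1. This held for 53.5% of all probe sets. The median difference of the 8 measured AGC VIII kinases was 0.04 in replicate 1 and -0.32 in replicate 2, and that of the 10 AGC kinases outside family VIII was 0.07 and -0.11. Over all probe sets the medians were 0.02 and 0.005. Mock replicate 2 was the highest of the 4 arrays for 6 of the 8 AGC VIII kinases, AT2G44830, AT3G44610, WAG2, PID2, AT5G03640 and AT4G13000, and for 26% of all probe sets. AT2G36350 and AT5G40030, the exceptions, were highest on GR24 replicate 2. This pattern was noticed in the values, genes of a family are not independent, and with 1 array per treatment and preparation it has no test.

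PID2, a relative of PINOID, read 4.71 and 4.91 with GR24 and 4.67 and 5.16 with mock in replicates 1 and 2. AT4G13000 read 5.23 and 5.19 with GR24 and 5.36 and 5.54 with mock. Both were named after their values were seen, and neither passed in the paired limma model (adjusted p = 0.912 and 0.686).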
